A study of Mus musculus with 18 samples.

Results

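The 4 genes Cebpa, Cebpb, Cebpd and Cebpg encode CCAAT/enhancer-binding proteins, a family of transcription factors, and were followed by their gene symbols through a table of 54838 genes. All 4 were found and all 4 passed the filter on low counts, which left 20067 genes in the test. RNA-seq libraries came from NSPs, which are neurospheres grown from neural stem cells of the ventricular zone of wild type C57BL/6J mouse brains at embryonic day 14 and kept proliferating with EGF, and from the same kind of cells after plating in 10% serum, which turns them towards astrocytes. Differentiating cells were taken at 24 h and 72 h, untreated or with TNF at 50 ng/ml, and at 1 week untreated, with 3 libraries in each of the 6 conditions. No 1 week culture with TNF is among the samples. The step from NSPs to differentiating cells changes medium, growth factor, surface and time together, and these cannot be told apart, whereas the TNF comparisons set cultures of the same age beside each other. Whether replicates came from separate brains is not stated in the labels, so p-values measure the spread between these libraries.

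C/EBP proteins bind DNA as dimers through a basic region and a leucine zipper, with themselves, with each other and with other zipper proteins. C/EBPβ and C/EBPδ, the products of Cebpb and Cebpd, are known as factors of the acute-phase and inflammatory response, and Cebpd is a classical target of cytokine signalling through STAT3 and NF-κB. In brain, both are known from astrocytes exposed to inflammatory cytokines. C/EBPα is best known from the differentiation of fat, liver and myeloid cells, and C/EBPγ is a short member that lacks a strong activation domain and works largely as a dimer partner, including with ATF4.

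In GENCODE M21 on GRCm38, the build named mm10 in the labels, Cebpa lies on chromosome 7 from 35119293 to 35121928 on the plus strand and Cebpg near it on the minus strand from 35046422 to 35056573. Cebpb lies on chromosome 2 from 167688915 to 167690418 and Cebpd on chromosome 16 from 15887286 to 15891031, both on the plus strand. Their exons span 2636 bases in Cebpa, 1504 in Cebpb, 3746 in Cebpd and 5621 in Cebpg, and Cebpb has a single exon.

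Sequences of the 250 bases before the annotated start are shown for the members with an entry in the RefSeq promoter table (GRCm38.p6), because these members followed different courses and the windows also differ in their short motifs. Cebpd has no entry. The capitals mark the motif matches, all read 5′ to 3′ on the strand of the gene. In the Cebpa window (chr7:35119043-35119292, plus strand) they mark TATAAA, in the Cebpb window (chr2:167688665-167688914, plus strand) TGACG or its reverse complement, and in the Cebpg window (chr7:35056567-35056816, minus strand) the reverse complement of CCAAT.
Cebpa: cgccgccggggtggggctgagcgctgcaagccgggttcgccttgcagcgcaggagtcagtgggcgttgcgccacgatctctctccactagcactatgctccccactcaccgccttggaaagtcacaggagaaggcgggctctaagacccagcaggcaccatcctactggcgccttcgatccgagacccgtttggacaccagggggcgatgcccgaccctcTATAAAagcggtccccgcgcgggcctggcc
Cebpb: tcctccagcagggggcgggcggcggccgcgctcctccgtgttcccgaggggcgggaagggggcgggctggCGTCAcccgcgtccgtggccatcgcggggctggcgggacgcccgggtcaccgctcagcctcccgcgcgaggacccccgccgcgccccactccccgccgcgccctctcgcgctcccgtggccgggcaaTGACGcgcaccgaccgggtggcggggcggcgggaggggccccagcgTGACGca
Cebpg: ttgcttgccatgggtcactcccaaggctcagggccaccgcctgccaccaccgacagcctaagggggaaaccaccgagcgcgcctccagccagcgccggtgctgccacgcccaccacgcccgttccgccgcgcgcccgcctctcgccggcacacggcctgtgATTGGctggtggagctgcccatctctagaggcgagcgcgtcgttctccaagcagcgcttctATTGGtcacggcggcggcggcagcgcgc

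The TATAAA of Cebpa covers bases 30 to 25 before the start. Of 32851 promoter windows of this length, 12.4% hold TATAAA on either strand. The Cebpb window holds TGACG, the core letters of sites read by CREB and ATF proteins, at bases 53 to 49 and 7 to 3 and on the reverse strand at 180 to 176, against 17.8% of windows with at least 1 match. The Cebpg window holds CCAAT on the reverse strand at bases 28 to 24 and 89 to 85, against 33.8% of windows. GC content was 66.4% for Cebpa, 81.6% for Cebpb and 70.8% for Cebpg, all above the median window at 52.4%. TTCNNNGAA, the STAT letters, TTGCGCAA, an exact C/EBP palindrome, and GGGANNTTC, the κB letters, were searched on both strands, had no match in these 3 windows, and occur in 7.02%, 0.164% and 3.23% of all windows. Looser spellings of these sites were not searched. No 2 matches overlap.

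The libraries held between 12509693 and 22549627 counts (median 16794798). Cebpb, with the fewest counts over all 18 libraries together, rested on 16 to 140 counts per library and Cebpg on 769 to 1708. By mean CPM Cebpa was scarcer than Cebpb at 72 h, with or without TNF, and at 1 week. Levels are given as CPM, the reads of a gene scaled by TMM to a common library size, and a gene is called changed where edgeR's quasi-likelihood test, adjusted over all 20067 genes, gave a p-value under 0.05. All 7 listed astrocyte markers were detected in every condition, without a common course. Between NSPs and 72 h 2 were called higher and 2 lower (median log2 -0.35, all genes 0.05), beside 55.3% of all genes called, and between NSPs and 1 week 0 higher and 4 lower (median -0.66, all genes 0.06), beside 58.6%, so these counts are near the background. When NSP replicate 1 was left out, Aldh1l1 took the place of Slc1a3 among the lower genes at 72 h. Gfap, the astrocyte filament protein, was at 27.1 ± 13.7 CPM (SD, n = 3) in NSPs, rose to 2432 ± 673 CPM by 72 h and stood at 63.4 ± 15.9 CPM at 1 week. With TNF at 72 h Gfap and S100b were called lower, Gfap by 2.31 on the log2 scale (adjusted p = 0.0128), beside 9.56% of all genes called. In the fit that leaves out replicate 1 of both TNF groups Gfap was -3.45 (adjusted p = 5.06e-06) and Gja1 was also called lower at 72 h (-2.09, 7.78e-05). At 24 h that fit called Gja1 (-1.83, 0.000735) and Slc1a2 (-0.60, 0.0345) lower. It called 3.65% of all genes at 24 h and 8.77% at 72 h. The fit of all libraries called 0 of the 7 at 24 h, beside 3.5% of all genes, so that 0 is near the background. Replicate 1 of NSPs and of each TNF group stood apart from the other libraries of its group. With it the chi-square per degree of freedom between replicates was 46.4 and 40.5 in NSPs, 43.8 and 54.6 at 24 h with TNF and 48.5 and 55.4 at 72 h with TNF, against 3.71, 8.10 and 11.1 between the other 2 libraries. At 1 week it was 19.1 and 21.8 with replicate 2 and 5.07 without, and leaving that library out changed no call of a member. Gfap was at 11.6 CPM in NSP replicate 1 and at 32.4 and 37.3 CPM in the other NSP libraries. It was at 1871 CPM in replicate 1 and at 463 and 596 CPM in the other libraries of the 24 h TNF group. The TNF results are therefore also given without both of these TNF libraries, an alternative chosen after the data were seen. Without NSP replicate 1 every member kept its direction and its call in the 3 untreated comparisons with NSPs. RNA is from whole cultures, so a change in the share of a cell type and a change in RNA per cell cannot be told apart.

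**Figure D1:**
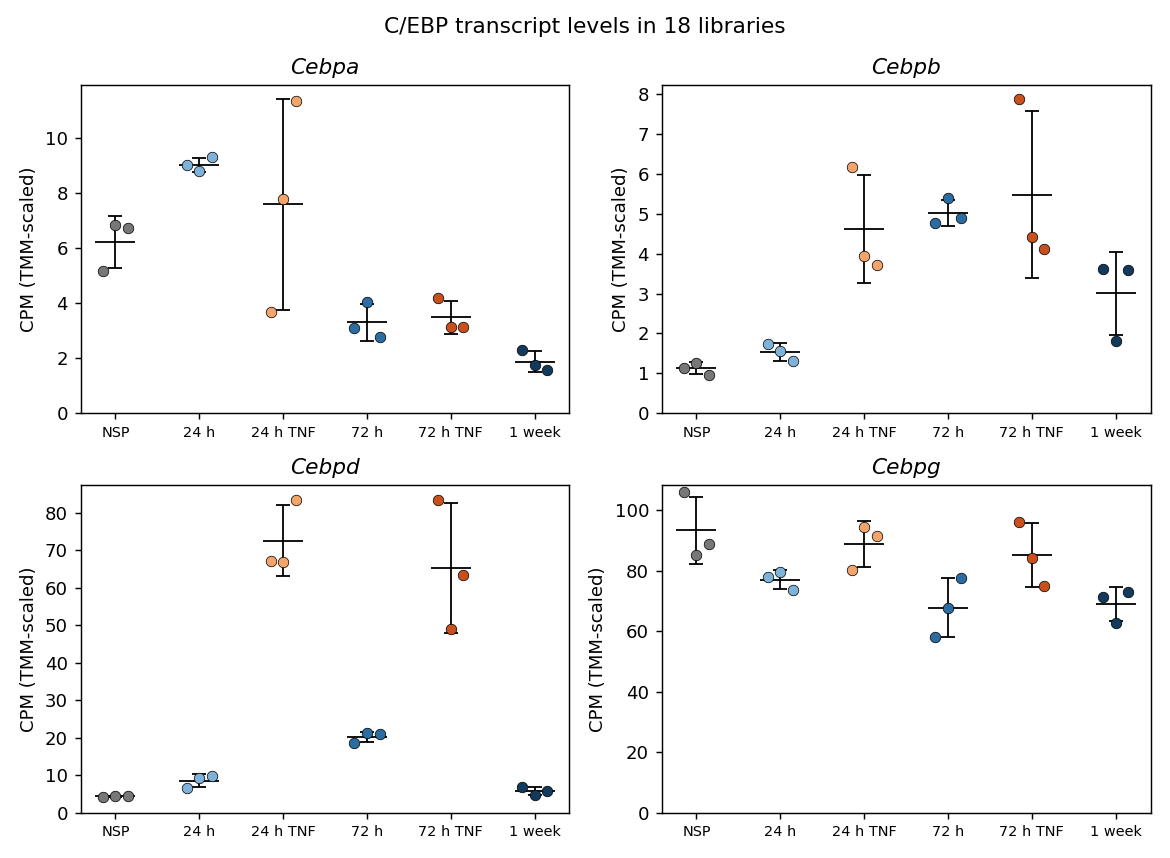
Levels of the 4 C/EBP genes in CPM (TMM-scaled, linear axis from 0) in the 18 libraries. Points are libraries in the order of replicates 1 to 3, long bars are means and whiskers SD. Cebpd is above 49 CPM in all 6 TNF libraries and below 22 CPM in the 12 others, while Cebpg stays between 58.2 and 106 CPM throughout.

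Cebpd was the member that moved most with TNF. It stood at 6.57, 9.34 and 9.94 CPM in the 24 h libraries and at 67.1, 67.0 and 83.5 CPM in the 24 h TNF libraries. The 2 groups lie far apart, and no other member separated so widely. This is an 8.41-fold rise (log2 fold change 3.07, SE 0.20, adjusted p = 3.50e-08). Of all genes tested, 3.5% were called in this comparison, and of the 438 called higher, 37 rose as much as Cebpd or more. Of the 4 members, 2 were called, Cebpd and Cebpb, both higher.

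At 72 h Cebpd was at 18.5, 21.2 and 20.9 CPM without TNF and at 83.4, 49.1 and 63.4 CPM with it. The groups again do not overlap, with replicate 1 the highest of the TNF libraries. The rise was 3.23-fold (log2 1.69, SE 0.18, adjusted p = 9.20e-06), in a comparison that called 9.56% of genes and no other member. Cebpd was not called between the TNF groups themselves, at 72.5 ± 9.49 CPM (SD, n = 3) at 24 h and 65.3 ± 17.3 CPM at 72 h (log2 fold change -0.15, 95% confidence interval -0.52 to 0.22, adjusted p = 0.644). Without replicate 1 of both TNF groups this change was -0.41 (adjusted p = 0.155). The untreated level was higher at 72 h than at 24 h, and the effect of TNF on Cebpd was smaller at 72 h, by -1.38 on the log2 scale (SE 0.26, adjusted p = 0.0232). This test of the difference called 0.458% of genes and no other member.

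Without replicate 1 of both TNF groups the rise of Cebpd was 3.12 at 24 h and 1.47 at 72 h on the log2 scale (adjusted p = 1.09e-08 and 1.62e-05), and the difference between the times was -1.65 (adjusted p = 0.00279). The difference between the times lost its call when any of 6 of the 12 libraries was left out. These were 24 h replicate 1 (-1.22, adjusted p = 0.0859), 24 h replicate 2 (-1.43, 0.0524), 24 h TNF replicate 3 (-1.27, 0.0526), 72 h replicate 2 (-1.35, 0.0795), 72 h replicate 3 (-1.36, 0.0743) and 72 h TNF replicate 3 (-1.36, 0.0544).

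Cebpd also changed over untreated differentiation. In NSPs its level was 4.32, 4.50 and 4.49 CPM, lower than in any library at 24 h (log2 0.96, SE 0.21, adjusted p = 0.000808). It rose further from 24 h to 72 h (log2 1.23, adjusted p = 0.000124), to a 4.55-fold higher level than in NSPs. At 1 week it was back at 6.85, 4.88 and 5.77 CPM, 3.45-fold below 72 h (log2 -1.79, SE 0.20, adjusted p = 2.05e-05). The value at 1 week was 0.40 above NSPs on the log2 scale and was not called (95% confidence interval -0.04 to 0.83, adjusted p = 0.106), although every 1 week library lay above every NSP library. In the order of levels NSPs were lowest, followed by 1 week, 24 h, 72 h, 72 h TNF and 24 h TNF. Neighbours in that order that did not separate were NSPs and 1 week by the test, 1 week and 24 h by their ranges, and the TNF groups by the test.

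Cebpd shares 562 exonic bases with Spidr, a gene for a DNA repair scaffold protein on the opposite strand, from 15889224 to 16146851. The libraries were stranded, but the strand setting of the counting is not given in the sources used here, so shared reads cannot be assigned with certainty. Spidr, given here for its position, was at 16.2 CPM at 24 h and 43.9 CPM with TNF (log2 1.43, SE 0.14, adjusted p = 4.82e-06), and at 15.1 and 34.8 CPM at 72 h (log2 1.20, adjusted p = 1.41e-05). From NSPs to 24 h, where Cebpd rose, it fell from 38.7 CPM by 1.25 on the log2 scale (adjusted p = 6.47e-07). The later untreated steps were -0.10 to 72 h and -0.27 to 1 week, neither of them called (adjusted p = 0.636 and 0.294). Its part in the counts of Cebpd was not tested.

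Cebpb responded to TNF at 24 h and, in untreated cells, to time. It was at 1.74, 1.57 and 1.30 CPM at 24 h and at 6.17, 3.95 and 3.72 CPM with TNF, with replicate 1 the highest and no overlap between the groups. The rise was 2.99-fold (log2 1.58, SE 0.32, adjusted p = 0.00727). It was 1.30 on the log2 scale without replicate 1 of both TNF groups (adjusted p = 0.0121), and missed the threshold without 24 h replicate 3 (log2 1.47, adjusted p = 0.0501). At 72 h the untreated libraries held 4.77, 5.40 and 4.90 CPM and the TNF libraries 7.89, 4.41 and 4.13 CPM. These overlap, and the difference was 0.13 on the log2 scale (95% confidence interval -0.47 to 0.72, adjusted p = 0.819). Without replicate 1 of both TNF groups it was -0.24 (adjusted p = 0.633). The change in the TNF effect between the times was -1.45 (SE 0.43), with an unadjusted p of 0.00300 in edgeR's fit and an adjusted p of 0.181. It was called without 72 h TNF replicate 1 (-1.80, adjusted p = 0.0476).

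Over untreated differentiation Cebpb was at 1.14, 1.26 and 0.967 CPM in NSPs and 0.45 higher on the log2 scale at 24 h (adjusted p = 0.293). It rose 3.25-fold from 24 h to 72 h (log2 1.70, SE 0.32, adjusted p = 0.000609), and so reached without TNF at 72 h the level it had with TNF at 24 h. At 1 week it was at 3.62, 1.81 and 3.59 CPM, still 2.66-fold above NSPs (log2 1.41, adjusted p = 0.00117), and by 1.68 on the log2 scale without replicate 2 of that group, the lowest of the 3 (adjusted p = 0.000255). The step down from 72 h to 1 week was -0.74 on the log2 scale and was not called (adjusted p = 0.154), although the groups do not overlap. In the order of levels NSPs were followed by 24 h, 1 week, 24 h TNF, 72 h and 72 h TNF, and the last 3 did not separate by their ranges. Cebpb shares 312 exonic bases with Tmem189 on the opposite strand. Tmem189, given for its position, was 0.39 lower on the log2 scale with TNF at 24 h (adjusted p = 0.349) and fell by 0.89 at 72 h (adjusted p = 0.00360). Its part in the counts of Cebpb was not tested.

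Cebpa took another course, high early and low late, without a called response to TNF. It was at 5.14, 6.81 and 6.71 CPM in NSPs and at 8.99, 8.78 and 9.29 CPM at 24 h. All 24 h libraries lay above the NSP libraries, with a difference of 0.53 on the log2 scale that missed the threshold (SE 0.29, adjusted p = 0.128). From 24 h to 72 h Cebpa fell 2.73-fold to 3.10, 4.05 and 2.75 CPM (log2 -1.45, SE 0.30, adjusted p = 0.00156). At 1 week it was at 2.30, 1.75 and 1.55 CPM, 3.29-fold below NSPs (log2 -1.72, SE 0.31, adjusted p = 0.000128). At 72 h it was below NSPs by -0.91 (adjusted p = 0.0152), a call that was lost without 72 h replicate 3 (-0.79, adjusted p = 0.0609).

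With TNF at 24 h the Cebpa libraries spread from 3.65 CPM in replicate 1 to 7.76 and 11.3 CPM in the other libraries. The difference from 24 h without TNF was -0.25 on the log2 scale (95% confidence interval -0.85 to 0.35, adjusted p = 0.792), and 0.08 without replicate 1 of both TNF groups. At 72 h TNF and untreated libraries overlapped, at 4.17, 3.13 and 3.13 CPM against the 3 values above (log2 0.08, 95% confidence interval -0.57 to 0.73, adjusted p = 0.906). Cebpa fell from 24 h to 72 h under TNF as well (log2 -1.12, adjusted p = 0.0179), in a comparison that called 13.3% of genes and no other member. That call was lost without 24 h TNF replicate 2 (-1.08, adjusted p = 0.0678) or 3 (-0.70, 0.163) and without 72 h TNF replicate 2 (-1.05, 0.0664) or 3 (-1.05, 0.0722). It was kept without replicate 1 of both TNF groups (-1.60, adjusted p = 0.000253). From low to high, the order was 1 week, 72 h, 72 h TNF, NSPs, 24 h TNF and 24 h, and 72 h TNF and NSPs were the only neighbours that separated by the test (log2 -0.84, adjusted p = 0.0211). This call too was lost without NSP replicate 2 (-0.77, 0.0589) or 3 (-0.79, 0.0563) or 72 h TNF replicate 2 (-0.77, 0.0658) or 3 (-0.77, 0.0653). It was kept without replicate 1 of both TNF groups (-0.99, adjusted p = 0.00199).

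Cebpg was the steadiest member. It was highest in NSPs, at 106, 85.2 and 89.0 CPM, and lowest at 72 h, at 58.2, 67.7 and 77.8 CPM. It fell by 0.46 on the log2 scale from NSPs to 72 h (SE 0.13, adjusted p = 0.00573) and by 0.43 from NSPs to 1 week (SE 0.13, adjusted p = 0.00790), which are steps of 1.38-fold and 1.35-fold. No other comparison called it. With TNF it was 0.20 higher on the log2 scale at 24 h (95% confidence interval -0.07 to 0.48, adjusted p = 0.557) and 0.33 higher at 72 h (95% confidence interval 0.06 to 0.60, adjusted p = 0.124). The intervals leave room for a TNF effect of up to 1.52-fold at 72 h.

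**Figure D2:**
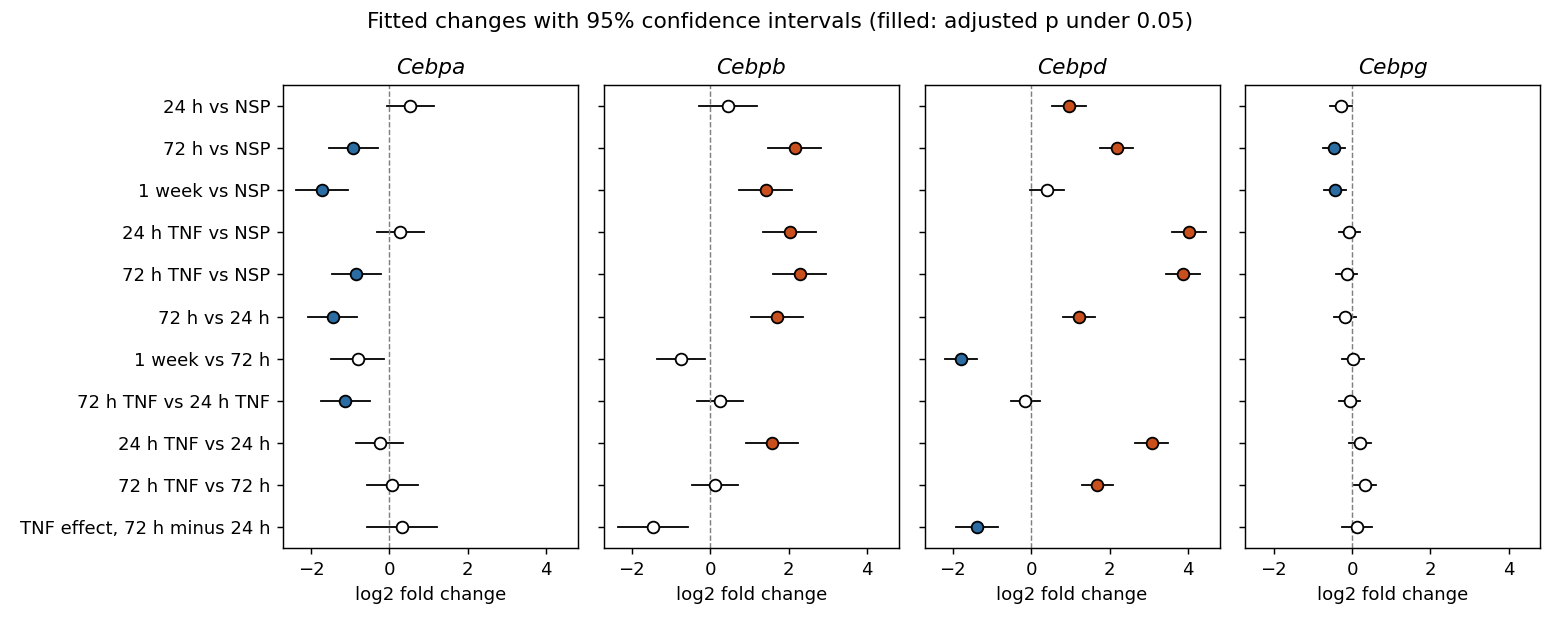
Fitted log2 fold changes of the 4 members (points) with 95% confidence intervals (lines) in 10 comparisons and in the difference between the TNF effects. Filled points passed the test, in red where higher and in blue where lower. Cebpd and Cebpb passed the test as higher with TNF at 24 h, and only Cebpd at 72 h. In that 72 h comparison the points of all 4 members lie right of 0. Cebpa is lower at 72 h and 1 week than in NSPs, and the points of Cebpg stay within 0.5 of 0.

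Counted by comparison, 1 of the 4 members was called between NSPs and 24 h, where 52.7% of all genes were called, and 4 of 4 between NSPs and 72 h, where the share of all genes was 55.3%. From NSPs to 1 week 3 members were called beside 58.6% of genes. From NSPs to 24 h with TNF 2 were called beside 54.5%, and to 72 h with TNF 3 beside 61.9%. From 24 h to 72 h 3 members were called beside 24.8% of genes, Cebpb and Cebpd higher and Cebpa lower. From 72 h to 1 week only Cebpd was called, beside 6.63% of genes.

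Divided by exon length, so that genes can be compared, Cebpg was the most abundant member in NSPs at 16.6 ± 1.99 CPM per kb (SD, n = 3), ahead of Cebpa at 2.36, Cebpd at 1.18 and Cebpb at 0.748 CPM per kb. Cebpg made up 79.3% of the summed CPM per kb of the 4 members there, and Cebpd 5.69%. With TNF at 24 h Cebpd made up 47.0% and Cebpg 38.5%, and at 72 h with TNF 46.1% and 40.9%. Cebpd exceeded Cebpg per kb in all 3 libraries at 24 h with TNF, by 1.06 to 1.37 times, and in 2 of 3 at 72 h with TNF, where replicate 2 was at 0.87. In the untreated libraries this ratio ran from 0.061 to 0.48. The order of Cebpd and Cebpg under TNF rests on the lengths used, 3746 and 5621 bases, and the longest transcript of Cebpg has 4709. Without division by length Cebpd was below Cebpg in every TNF library. At 24 h it was at 67.1, 67.0 and 83.5 CPM against 80.3, 94.6 and 91.6 CPM. At 72 h it was at 83.4, 49.1 and 63.4 CPM against 96.2, 84.3 and 75.1 CPM. The summed level was 20.5 ± 0.49 CPM per kb at 24 h and 41.1 ± 3.90 with TNF, and 22.1 ± 2.14 at 72 h and 37.6 ± 7.57 with TNF, with no overlap at either time. These shares and sums are a description, with no test.

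Untreated cells showed a different make-up. Cebpb took its largest share at 72 h without TNF, 15.2%, against 3.59% in NSPs and 9.49% at 72 h with TNF. Cebpa made up 16.7% at 24 h, its highest share, and 4.29% at 1 week. The ratio of Cebpa to Cebpb per kb was between 2.57 and 4.07 in the NSP and 24 h libraries and between 0.25 and 0.55 in the 72 h and 1 week libraries without TNF. At 1 week Cebpg was again at 74.5%, and Cebpb exceeded Cebpd in 2 of 3 libraries.

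**Figure D3:**
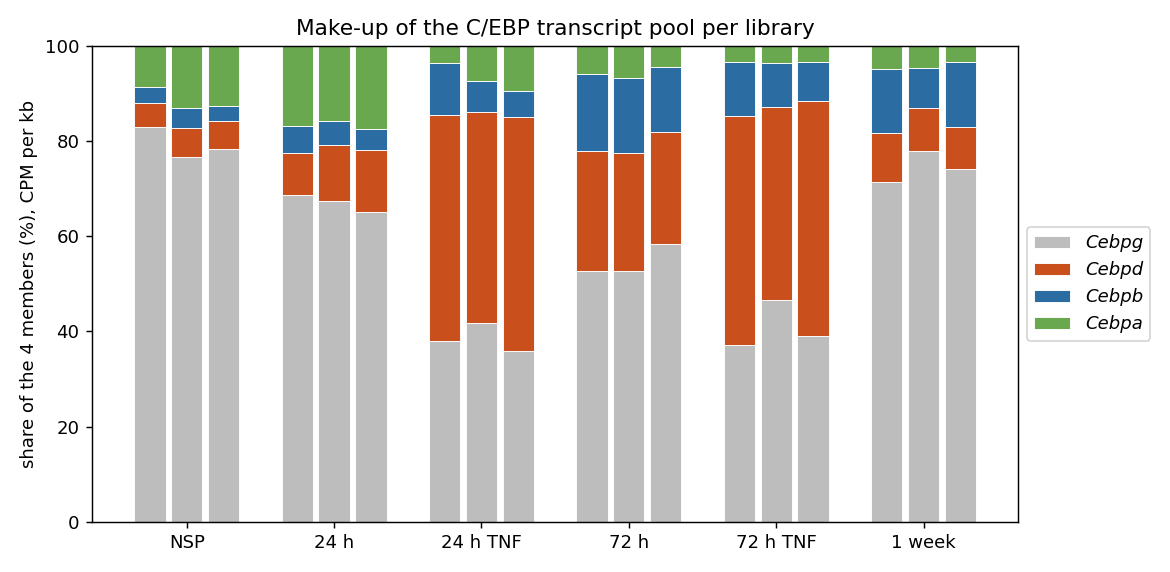
Share of each member in the summed CPM per kb of exon of the 4 C/EBP genes, in percent, with 1 bar for each of the 18 libraries (replicates 1 to 3 from left to right). Cebpd takes 40.7% to 49.4% in the TNF libraries, and Cebpg 76.6% to 83.0% in NSPs.

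Among genes known to feed into C/EBP expression, a list of 15 cytokine and STAT3 genes of which 10 passed the filter, the receptor subunit Il6st (gp130) rose from NSPs to 72 h, with 162 CPM in NSPs, 1197 CPM at 24 h and 1948 CPM at 72 h (log2 2.89 and 3.59, adjusted p = 1.05e-10 and 3.17e-12). Jak1 rose by 0.44 at 24 h (adjusted p = 0.00170). At 24 h 4 of the 10 were higher than in NSPs and 0 lower (median log2 0.33, all genes 0.06), beside 52.7% of all genes called. With TNF at 24 h 3 were higher and 1 lower, beside 3.5% of all genes called. The receptor gene Lifr fell from 359 to 234 CPM (log2 -0.62, adjusted p = 0.0395). The higher genes, named after their values were seen, were the receptor genes Il6ra (log2 3.19, adjusted p = 0.00307) and Osmr (2.04, adjusted p = 0.000453) and the ligand gene Lif (2.10, adjusted p = 0.0216). Lif had 4 to 9 counts and Il6ra 5 to 17 counts in the 24 h libraries. Both passed the filter through their higher groups, so no median is given for this comparison and the count of 3 is not read as a result. Stat3 itself was at 267 and 315 CPM (log2 0.24, adjusted p = 0.420). At 72 h with TNF none was higher and Il1r1 was lower (log2 -1.11, adjusted p = 0.0311), beside 9.56% of all genes called. Without replicate 1 of both TNF groups Il6ra and Osmr were still called at 24 h (log2 2.17 and 1.53, adjusted p = 0.00228 and 2.50e-05), while Lif (log2 1.46, adjusted p = 0.109) and Lifr (-0.41, 0.0897) were not. At 72 h that fit called Lifr higher (log2 0.46, adjusted p = 0.0248) and Il1r1 and Il6st lower (-1.67 and -0.37, adjusted p = 0.000135 and 0.0458). From 72 h to 1 week, the step in which Cebpd fell, 5 of the 10 were lower and 0 higher, beside 6.63% of all genes called. They were Il1r1, Il6ra, Osmr, Il6st, which fell to 1328 CPM (log2 -0.55, adjusted p = 0.0210), and Stat3, which fell by 1.07 (adjusted p = 3.05e-05).

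Of 10 genes for zipper proteins that can pair with C/EBP factors, 8 passed the filter. With TNF 0 of the 8 were called at 24 h by edgeR and 0 by DESeq2 (4 at an unadjusted p under 0.05), and at 72 h Jun was called, from 53.8 to 79.9 CPM (log2 0.57, SE 0.13, adjusted p = 0.00600). Of all genes, 3.5% and 9.56% were called in these comparisons. The medians were 0.39 and 0.18, against -0.01 for all genes at both times. With replicate 1 of both TNF groups left out the calls were the same, but the median was 0.30 at 24 h and turned to -0.24 at 72 h. From NSPs to 24 h 1 of the 8 was called higher and 3 lower, beside 52.7% of all genes. The higher one was Atf3, at 3.92 CPM in NSPs and 9.87 CPM at 24 h (log2 1.33, adjusted p = 0.00525). Atf4, a factor of the amino acid response, fell to 95.8 CPM at 24 h, against 240 CPM in NSPs (log2 -1.32, adjusted p = 1.04e-06), and Jun fell by 0.74 (adjusted p = 9.00e-05). Atf2 was between 81.4 and 88.9 CPM in all 6 condition means. Ddit3, which encodes the C/EBP-related protein CHOP, was at 14.1 CPM in NSPs and 8.37 CPM at 24 h (log2 -0.75, adjusted p = 0.00626). Cebpz, which shares the name but not the zipper, fell by 0.85 at 24 h (adjusted p = 0.000124), and Cebpe was at 0 in every condition but NSPs, at 0.021 CPM there.

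Acute-phase and inflammatory genes known as C/EBP targets were mostly silent. Of 17 listed, 5 passed the filter, and Saa1, Saa2, Saa3, Hp, Orm1, Il6 and Il1b were among the 12 that did not. Lcn2 and Ptgs2 had at most 4 counts in every NSP, 24 h and 1 week library and passed the filter through the libraries where they are higher, so no median over the 5 is given. The complement gene C3 was at 3.24 ± 3.07 CPM (SD, n = 3) at 24 h and 183 ± 150 CPM with TNF, with 356 CPM in replicate 1 (log2 5.87, SE 0.58, adjusted p = 7.04e-06). The chemokine gene Ccl2 was at 0.112 to 0.489 CPM and, with TNF, at 24.5 to 28.3 CPM (log2 6.75, adjusted p = 3.50e-08), where the size of the fold rests on 2 to 6 counts in the 24 h libraries. The protease inhibitor gene Serpina3n rose from 1.47 to 9.17 CPM (log2 2.62, adjusted p = 0.0113). The iron-carrier gene Lcn2 had at most 4 counts in any 24 h library and was at 6.26 to 14.8 CPM with TNF. Without replicate 1 of both TNF groups C3 (log2 4.96, adjusted p = 9.22e-07), Ccl2 (6.77, 4.12e-08) and Serpina3n (2.27, 0.000473) were still called.

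At 72 h C3 was at 116 ± 12.1 CPM without TNF and 1422 ± 89.0 CPM with it (log2 3.61, SE 0.49, adjusted p = 8.24e-05), while Ccl2 was at 1.37 and 4.03 CPM (log2 1.53, adjusted p = 0.00611). The TNF effect at 72 h was smaller than at 24 h for Ccl2 (log2 -5.23, adjusted p = 0.000255), a value that rests on the same few counts. Serpina3n was at 22.3 CPM in replicate 1 and at 3.50 and 4.93 CPM in the other 72 h TNF libraries. Its fitted change was -0.18 with all libraries (adjusted p = 0.856) and -1.46 without replicate 1 of both TNF groups (adjusted p = 0.00482). Without TNF, C3, Serpina3n and Ccl2 rose from 24 h to 72 h and fell from 72 h to 1 week, as Cebpd did. C3 changed by 5.22 and -3.65 on the log2 scale in these steps (adjusted p = 2.95e-06 and 0.000201).

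Amino acid response genes, which depend on ATF4 and its C/EBP partners, fell in the first step of differentiation. All 10 listed genes passed the filter and all 10 were lower at 24 h than in NSPs (median log2 -1.69, all genes 0.06, 52.7% of all genes called). Psat1, of serine synthesis, fell from 391 to 137 CPM (log2 -1.51, adjusted p = 3.57e-06), and the asparagine synthetase gene Asns from 132 to 36.0 CPM (log2 -1.87, adjusted p = 2.55e-05). Slc7a11, the cystine transporter gene, fell by 2.07 (adjusted p = 0.00937). With TNF at 24 h only Phgdh was called, lower (log2 -0.75, adjusted p = 0.0293), and at 72 h Phgdh and Psat1, both lower (log2 -1.16 and -0.77, adjusted p = 0.000462 and 0.0137), beside 3.5% and 9.56% of all genes called. The medians with TNF were 0.42 and 0.19, so the median and the calls differ in sign. Without replicate 1 of both TNF groups 0 were called at 24 h (median 0.13, Phgdh -0.64 with an adjusted p of 0.0899), and at 72 h Phgdh and Psat1 were again called lower with a median of -0.40, so the sign of the 72 h median rests on these libraries. In the TNF comparisons Cebpg was 0.20 and 0.33 higher with all libraries, without a call. From 24 h to 72 h without TNF 1 of the 10 was higher and 1 lower (median 0.02), beside 24.8% of all genes called, and from 72 h to 1 week 1 was higher (median -0.14), beside 6.63%.

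**Figure D4:**
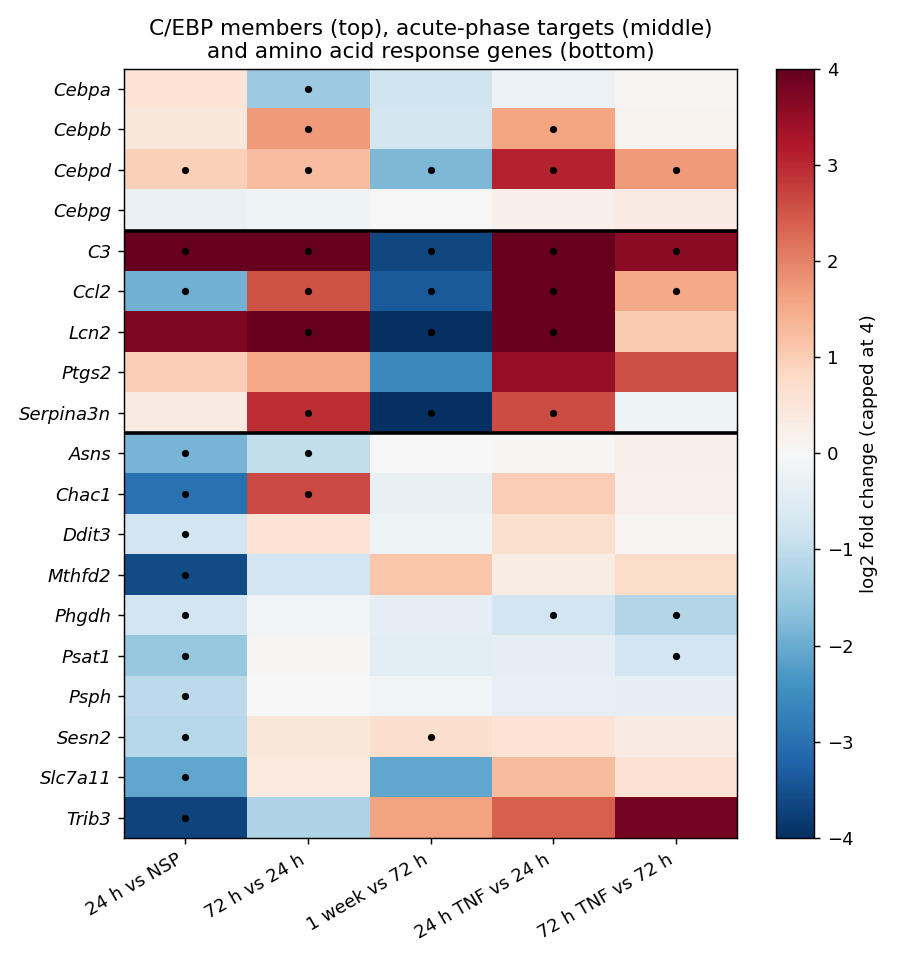
Log2 fold changes (colour, capped at 4 in either direction) of the C/EBP members, the 5 tested acute-phase targets and the 10 amino acid response genes in 5 comparisons. Black dots mark genes that passed the test. Cebpd carries a dot in all 5 columns, and all 10 amino acid response genes are blue with a dot between NSPs and 24 h.

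Of 8 genes that control the turnover or translation of C/EBP proteins, all tested, 6 were lower at 24 h than in NSPs and 0 higher (median log2 -0.77, all genes 0.06), beside 52.7% of all genes called in either direction. Without NSP replicate 1 the number was 4, as Trib1 (log2 -0.50, adjusted p = 0.154) and Celf1 (-0.18, 0.144) were no longer called. The pseudokinase genes Trib1 and Trib2, whose products direct C/EBPα to degradation, fell from 36.0 to 19.8 CPM (log2 -0.86, adjusted p = 0.0191) and from 461 to 151 CPM (log2 -1.61, adjusted p = 8.36e-07). Both fell again to 72 h, to 5.47 and 80.5 CPM (adjusted p = 0.000272 and 0.000897), the step in which Cebpa fell. With TNF 0 of 8 were called at 24 h by edgeR and 0 by DESeq2 (2 at an unadjusted p under 0.05), and at 72 h Trib1 was called, higher (log2 1.21, adjusted p = 0.0196), beside 3.5% and 9.56% of all genes. Trib1 was not called there without replicate 1 of both TNF groups (log2 0.91, adjusted p = 0.0705). Celf1, which encodes an RNA-binding protein that acts on C/EBP messages, fell by 0.36 at 24 h (adjusted p = 0.0202), and Cop1 stayed between 122 and 139 CPM in the condition means.

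Myeloid cells also express C/EBP genes, so their markers were read beside the members. The 10 listed myeloid markers summed to 4.86 to 6.27 CPM at 24 h, 8.20 to 17.9 CPM at 24 h with TNF, 3.80 to 5.37 CPM at 72 h and 4.88 to 12.2 CPM at 72 h with TNF. The increase lay in Cd68, a lysosomal protein gene, which was at 1.98 CPM at 24 h and 8.21 CPM with TNF, with 15.3 CPM in replicate 1 (log2 2.06, adjusted p = 0.0409). Its rise was 1.24 on the log2 scale without replicate 1 of both TNF groups (adjusted p = 0.0283). The defining markers Ptprc, Spi1, Itgam and Tyrobp were at 0.088 CPM or less in every condition mean, and Csf1r, the microglial growth factor receptor gene, was at 0.632 CPM at 24 h and 0.595 CPM with TNF. Neuron markers summed to 17.8 to 35.7 CPM in NSPs, 38.8 to 47.0 CPM at 24 h, 10.4 to 11.4 CPM at 72 h and 6.58 to 7.55 CPM at 1 week. With TNF they summed to 27.0 to 60.2 CPM at 24 h and 7.89 to 17.2 CPM at 72 h. In untreated cells this sum, like Cebpa, was highest at 24 h and lowest at 1 week. Endothelial markers summed to at most 6.75 CPM in any library. The fibroblast and mural list reached 528 CPM through Acta2, an actin gene of contractile cells, while Col1a1, Pdgfrb, Dcn and Lum were at 0.512 CPM or less in every condition mean. Oligodendrocyte markers summed to 417 to 452 CPM in NSPs and to at most 112 CPM at 24 h, with Olig2 lower by 2.23 on the log2 scale. The part of these cell types in the levels of the C/EBP genes was not tested.

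The genes whose log2 CPM followed each member most closely over the 18 libraries, among 16451 genes with a mean of at least 1 CPM, were found by Pearson's r and are given as a description. The libraries share conditions, so such values are high for many genes. Cebpd was most like Casp4, an inflammatory caspase gene (r = 0.975), Steap4, a metalloreductase gene (0.962), and the AP-1 gene Junb (0.961). Casp4 went from 1.36 CPM at 24 h to 58.9 CPM with TNF, and from 2.51 to 48.9 CPM at 72 h. Cebpb was most like Ppp1r15a (0.951), Sqstm1 (0.948) and Gadd45a (0.944), all known as stress-response genes. Like Cebpb, Sqstm1 reached at 24 h with TNF (399 CPM) about the level it had at 72 h without (418 CPM). Cebpa was most like the adaptor gene Grb14 (0.958), the kinase gene Map3k1 (0.956) and Dpysl3 (0.939). Cebpg was most like Sgk1 (0.915), a kinase gene, Dync1li2 (0.899), a dynein subunit gene, and Rgs10 (0.896). Between members, r was 0.78 for Cebpb and Cebpd, 0.50 for Cebpa and Cebpg, and -0.42 for Cebpa and Cebpb.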

How the data were processed

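Total RNA of 18 cultures was depleted of ribosomal RNA, made into stranded libraries and sequenced in paired ends. Per the labels, the authors checked and trimmed reads (FastQC, Trim Galore), aligned them with STAR (build mm10) and counted them per gene with featureCounts, and they deposited raw counts, which are not normalized. Tool versions, the strand setting, the handling of reads shared by genes and RNA quality per library are not given in the sources used here. All 18 columns were used. The column of the third 72 h library carries the number 4.

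Of 54838 gene IDs, 54809 matched GENCODE M21. Counts were scaled by TMM and tested in edgeR 4.0.16 (limma 3.58.1, R 4.3.3) by the quasi-likelihood test over all 18 libraries, with 1 mean per condition, filterByExpr (20067 genes), Benjamini-Hochberg adjusted p-values called under 0.05. The estimated biological variation between libraries was 0.18 as a coefficient. The test recovered changed genes in simulated data. Reads carry no molecular identifiers, so counts are not independent molecules. Log2 CPM used a prior count of 2. Levels and promoters were read with pandas 2.3.3 and numpy 2.4.6 (Python 3.11.15), and matplotlib 3.10.9 drew the plots.

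Libraries were grouped by their labels. The members, gene lists and tests were chosen with earlier results of these data known. Named are the members, the up to 6 most abundant genes of each list, and the 3 genes most like each member with a mean of at least 1 CPM. Other genes are named by position, as defining markers, or after their values were seen. Libraries with the same number had correlated deviations above 0.1 in every pair only between the TNF groups (0.29, 0.26 and 0.27), where the data and not the labels give the pairing. There the block by replicate changed no call of a member. Alternatives were DESeq2 1.42.0, RLE factors, other filters, smaller fits, replicate blocks, left-out libraries (those without NSP replicate 1 for the lists, or without replicate 1 of both TNF groups, were chosen after the data were seen), other lengths and another prior count.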

Additional observations from a re-analysis of the deposited data

Results flagged for a closer look

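The effect of TNF differed between 24 h and 72 h, by the interaction term of the same fit, for Cebpd, Ccl2 and S100b among the genes described. For Cebpd the effect at 72 h minus that at 24 h was -1.38 on the log2 scale (adjusted p = 0.0232), a call that was lost without any of 6 of the 12 libraries, with only the groups compared (adjusted p = 0.0666) and with the block and 72 h replicate 3 unpaired (0.0988). For Ccl2 it was -5.23 (adjusted p = 0.000255), where the size rests on 2 to 6 counts in the 24 h libraries. Lcn2 also passed that test, but its fitted value of -5.52 depends on the prior count, since it had at most 4 counts in any 24 h library and passed the filter through its higher groups, and nothing is read from it. For the astrocyte marker S100b it was -1.32 (adjusted p = 0.0309), with a TNF effect of -0.32 at 24 h and -1.64 at 72 h. When replicate 1 of both TNF groups was left out, Cebpd (-1.65), Ccl2 (-5.24) and S100b (-1.33) were still called, and so were Serpina3n (-3.73, adjusted p = 0.000510), Gfap (-2.69, 0.00599), Osmr (-1.08, 0.0416), Lifr (0.87, 0.0267) and Olig2 (1.08, 0.00608), the last 2 in the other direction. Groups of 3 libraries were too small for a test of single outlying libraries.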

How the results depend on the processing

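DESeq2, RLE factors and the block by replicate number each kept direction and call in 44 of 44 results on the members, and no called value of a member changed sign under any alternative. With the replicate block Cebpd rose with TNF by 3.06 at 24 h and 1.68 at 72 h, and the difference was -1.38 (adjusted p = 0.0335). Elsewhere than between the TNF groups the pairing is a shared number only. With the block and 72 h replicate 3 unpaired, Cebpa at 72 h against NSPs was -0.73 (adjusted p = 0.101) and the Cebpd difference -1.40 (0.0988), leaving 0 members called in it. With only the groups compared, Cebpa at 24 h against NSPs was 0.56 (0.0288), making 2 members called, Cebpa between the TNF groups was -1.10 (0.132), leaving 0, and the Cebpd difference was -1.37 (0.0666), leaving 0. With no filter the Cebpb difference was -1.44 (0.0473), making 2 members called. With at least 10 counts in every library, Cebpd at 1 week against NSPs was 0.50 (0.0388) and Cebpg with TNF at 72 h 0.37 (0.0391), making 2 called there. Without replicate 1 of both TNF groups Cebpa at 24 h with TNF against NSPs was 0.61 (0.0281).

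With each library left out in turn, 270 of 288 values kept their call. Those that did not ranged from -1.09 to -0.79 for Cebpa at 72 h against NSPs, -0.14 to 0.59 at 24 h with TNF against NSPs (called without 24 h TNF replicate 1), -0.96 to -0.77 at 72 h with TNF against NSPs, and -1.42 to -0.70 between the TNF groups. For Cebpb they were 1.29 to 1.72 with TNF at 24 h and -1.80 to -1.16 for the difference between the times, and for Cebpd -1.58 to -1.21 for that difference. Members called ranged from 0 to 1 between the TNF groups, from 1 to 2 with TNF at 24 h, and from 0 to 2 for the difference. The causes were not tested, apart from fewer libraries or genes in the fits that leave some out. Shares within the family moved by more than 1 SD in 22 of 24 values without division by length. Cebpb rested on 16 to 140 counts per library.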

Other observations

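Metabolic genes known as C/EBP targets in fat and liver gave no common direction. Of 11 listed, 4 passed the filter, and the defining fat cell genes Adipoq, Fabp4, Plin1 and Lep were at 0.108 CPM or less in every condition mean. The desaturase gene Scd1 was at 425 CPM in NSPs, fell to 181 CPM by 72 h (log2 -1.23, adjusted p = 8.57e-06) and rose again to 373 CPM at 1 week (log2 1.04, adjusted p = 0.000981). The glucose transporter gene Slc2a4 rose from 0.329 to 1.41 CPM at 24 h (log2 2.08, adjusted p = 0.000289) and fell with TNF at 72 h by 1.50 (adjusted p = 0.0192). The fatty acid carrier gene Cd36 fell with TNF at 72 h from 16.3 to 6.09 CPM (log2 -1.42, adjusted p = 0.00695) and without TNF to 1.08 CPM at 1 week. With TNF 0 of the 4 were called at 24 h by edgeR and 0 by DESeq2 (1 at an unadjusted p under 0.05), and 2 by edgeR at 72 h, both lower (median log2 -0.24 and -0.81, all genes -0.01), beside 3.5% and 9.56% of all genes called. With replicate 1 of both TNF groups left out Slc2a4 was not called at 72 h, at -1.38 (adjusted p = 0.0674).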
